A study of Mus musculus with 6 samples.

Results

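The 11 laminin chains and 26 integrin chains (18 alpha and 8 beta) of the mouse were described in sphere cultures of early mammary lesions and of primary mammary tumors. The members were chosen by gene symbol, Lama, Lamb, Lamc, Itga and Itgb with their chain numbers or letters. This gave 37 of the 19893 symbols listed for all 6 libraries, counts of 0 included. For each symbol the transcript with the highest mean count was kept. Both groups came from MMTV-HER2/Neu mice of the FvB strain, in which the mouse mammary tumor virus promoter drives the Neu (ErbB2) receptor in mammary epithelium, so the controls carry the oncogene too. The 3 early lesion (EL) libraries were from mice of 14 to 18 weeks with no palpable tumor. The 3 primary tumor (PT) libraries were from mice older than 20 weeks with primary tumors. Digested tissue of both was grown for 7 days on ultra-low-adhesion plates as mammospheres, floating clusters that favor epithelial cells able to survive without attachment, and polyadenylated RNA was sequenced. The tissue field of the EL samples names lung beside mammary, whereas the growth protocol speaks of mammary glands. Age and tumor stage differ between the groups together and cannot be told apart. The labels do not tie libraries to single animals. The p-values therefore reflect library-to-library spread, and that spread could be purely technical.

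Laminins are trimers of an alpha, a beta and a gamma chain that polymerize into the sheet of the basement membrane, and the alpha chain carries the main binding site for cells. Integrins are receptors of an alpha and a beta chain. The alpha chain largely sets the ligand (laminins, collagens, or proteins with an arginine-glycine-aspartate motif such as fibronectin) and the beta chain links to talin and kindlin, or, for beta 4, to the keratin filaments of hemidesmosomes. In the mammary gland, myoepithelial and stromal cells make most of the basement membrane, and luminal cells sense it through alpha 3 beta 1, alpha 6 beta 1 and alpha 6 beta 4 integrins.

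The deposited counts summed to between 69759793 and 85126630 per library, the lowest from a table of EL replicate 1 that breaks off within a row. No member's row was lost by that, and all 37 members passed the filter on low counts. Levels are CPM, each count divided by its library's TMM-scaled size, given as mean ± SD with n = 3 libraries per group, and log2 fold changes are PT minus EL with a standard error (SE). Within a group the log2 CPM of libraries correlated at 0.995 or more across genes, against 0.839 to 0.847 between groups. The median log2 fold change of all 13844 genes tested was 0.0049, and scaling by library totals alone raised it by 0.25. That scaling moved the calls over all genes from 5527 higher and 5646 lower to 7911 higher and 4111 lower. All 12 luminal epithelial markers on the list used were higher in PT, and their summed level was 3887 to 4056 CPM in EL and 13292 to 13472 CPM in PT. In these bulk samples, fewer cells of a type and less RNA per cell cannot be told apart.

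Of the 37 chains, 13 were higher and 21 lower in PT by edgeR's quasi-likelihood test with Benjamini-Hochberg adjustment over all genes at 0.05, and 3 did not pass. The called members were 91.9% of all 37, beside 80.7% of all genes tested. The higher members were 35.1%, beside 39.9% of all genes, and the lower members 56.8%, beside 40.8%. With a fold change over 2 as well, 5 members were higher (13.5%, beside 9.43% of all genes) and 18 lower (48.6%, beside 19.4%), so 62.2% of members and 28.8% of all genes were called and changed over 2-fold. The groups did not overlap for 35 members (94.6%, beside 82.7% of all genes). A test against a 2-fold minimum called the same numbers of members, 5 higher and 18 lower, beside 7.3% and 17.3% of all genes. The laminins were mostly lower (2 higher and 9 lower of 11, median log2 fold change -2.48), whereas the integrins were split (11 higher, 12 lower and 3 not called of 26, median -0.26).

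**Figure D1:**
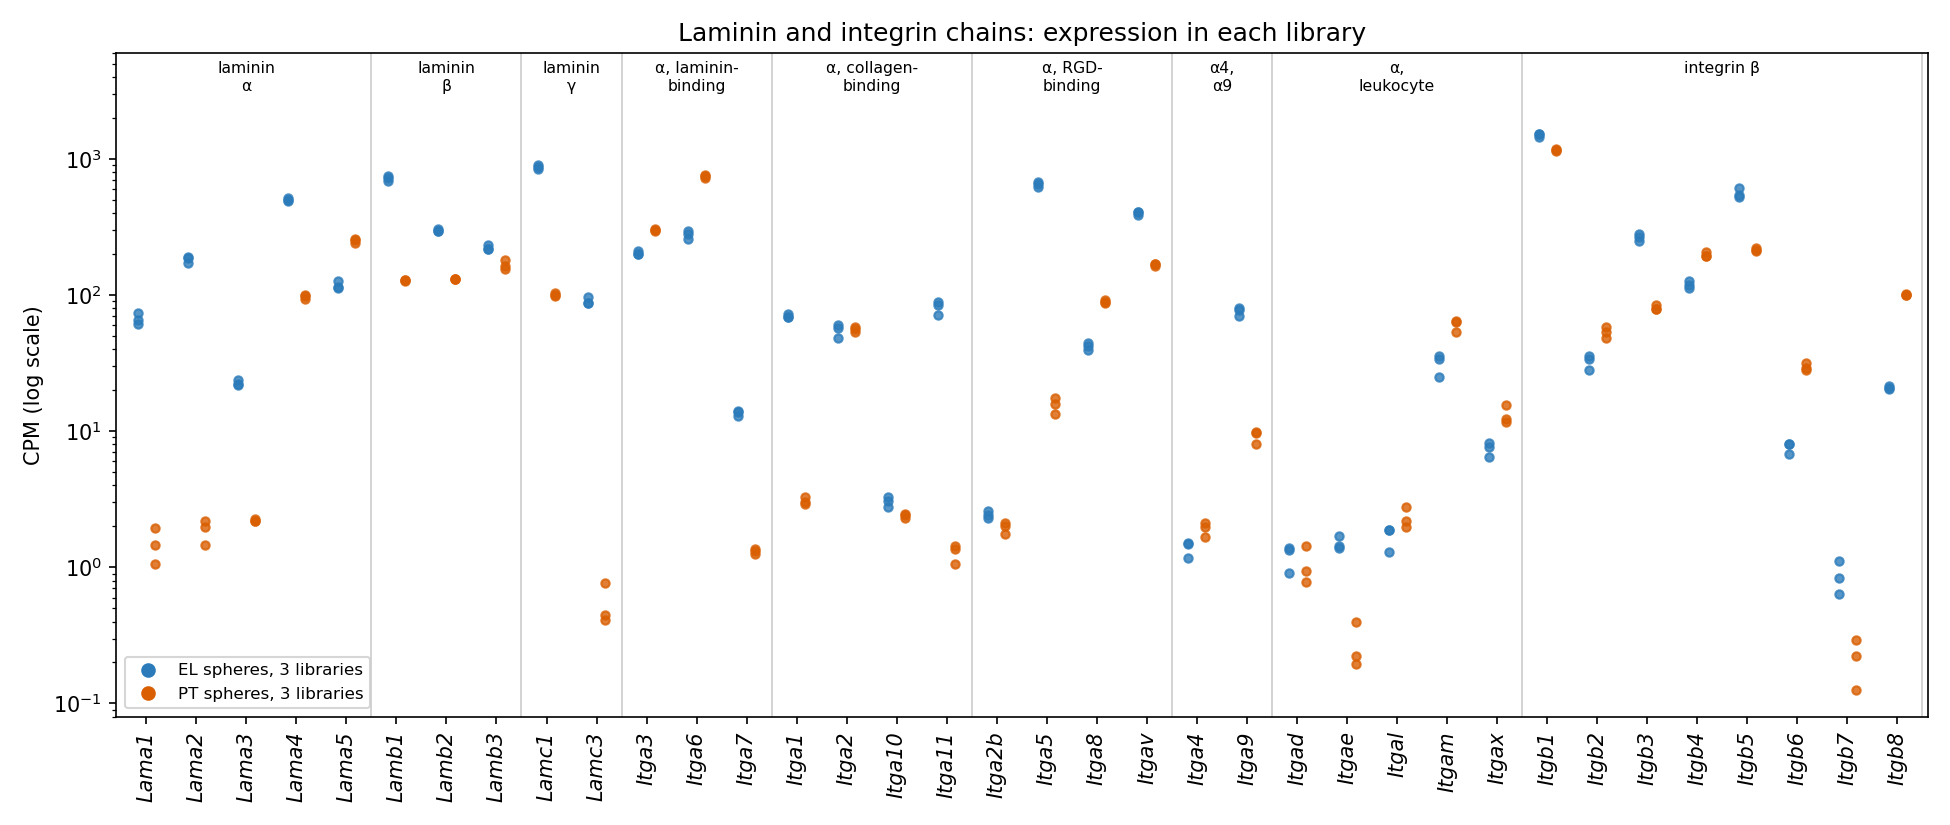
Level of 36 of the 37 chains in each of the 6 libraries (CPM, log axis), EL in blue and PT in orange and genes grouped by chain family; each point is 1 library. Lamc3, Lama2, Itga11 and Itga5 lie far lower in PT, Itgb8, Itgb6 and Itga6 lie higher, and the groups overlap for Itga2 and Itgad.

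**Figure D2:**
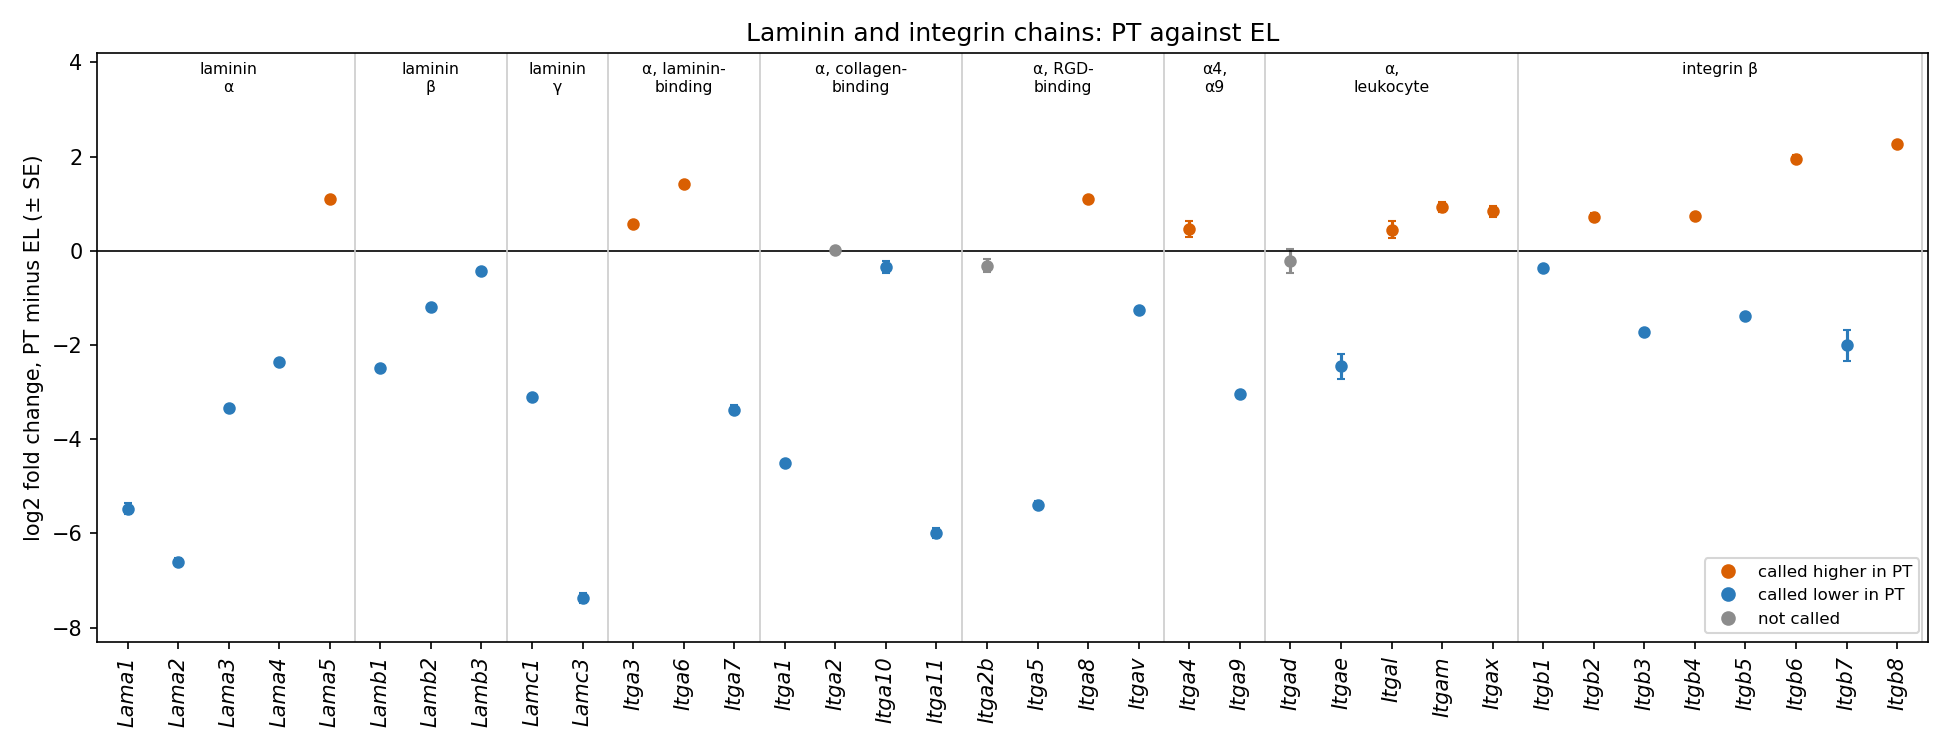
Log2 fold change of 36 of the 37 chains, PT minus EL, from the edgeR fit, with bars of 1 SE (n = 3 libraries per group), orange for called higher, blue for called lower and gray for not called. The changes run from -7.38 for Lamc3 to 2.28 for Itgb8, and the laminin chains lie mostly below 0.

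Reference promoter windows are shown for the chain with the highest and the lowest log2 fold change in each of the laminins, the integrin alpha chains and the integrin beta chains, among those of at least 20 CPM in a group whose window lies within 50 bases of the start of the counted transcript. They let the changes of the next paragraphs be read beside the DNA in front of each gene. Each is the 250 bases before a start of the gene in RefSeq for GRCm38.p6, the one nearest the start of the counted transcript where several are listed, 5′ to 3′ on the gene's strand, and capitals mark the E2-box searched for, CACCTG on either strand (CAGGTG), which repressors of the ZEB and SNAI families bind.
Lama5 chr2:180225860-180226109 (minus strand): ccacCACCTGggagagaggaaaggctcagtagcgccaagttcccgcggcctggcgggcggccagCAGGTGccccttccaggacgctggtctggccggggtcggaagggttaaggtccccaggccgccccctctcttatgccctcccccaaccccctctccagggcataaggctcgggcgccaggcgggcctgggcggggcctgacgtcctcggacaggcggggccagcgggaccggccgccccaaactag
Lamb1 chr12:31265043-31265292 (plus strand): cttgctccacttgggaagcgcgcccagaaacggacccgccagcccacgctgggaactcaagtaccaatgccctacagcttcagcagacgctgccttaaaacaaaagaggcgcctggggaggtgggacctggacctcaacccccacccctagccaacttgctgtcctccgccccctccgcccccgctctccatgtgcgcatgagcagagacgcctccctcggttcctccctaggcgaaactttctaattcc
Itga8 chr2:12301945-12302194 (minus strand): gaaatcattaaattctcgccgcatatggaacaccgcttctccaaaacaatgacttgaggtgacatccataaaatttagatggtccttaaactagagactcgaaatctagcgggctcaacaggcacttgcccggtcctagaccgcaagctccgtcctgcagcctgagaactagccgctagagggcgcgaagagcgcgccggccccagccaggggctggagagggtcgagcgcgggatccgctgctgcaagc
Itga11 chr9:62677605-62677854 (plus strand): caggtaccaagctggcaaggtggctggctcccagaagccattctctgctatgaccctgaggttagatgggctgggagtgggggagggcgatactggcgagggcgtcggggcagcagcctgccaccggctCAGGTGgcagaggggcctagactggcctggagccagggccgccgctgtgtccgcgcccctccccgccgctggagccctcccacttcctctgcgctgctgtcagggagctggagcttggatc
Itgb6 chr2:60673694-60673943 (minus strand): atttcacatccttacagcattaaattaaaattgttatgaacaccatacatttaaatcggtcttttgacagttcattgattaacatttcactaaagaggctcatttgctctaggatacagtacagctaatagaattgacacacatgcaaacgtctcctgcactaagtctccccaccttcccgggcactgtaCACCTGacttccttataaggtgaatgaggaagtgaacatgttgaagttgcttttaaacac
Itgb5 chr16:33829415-33829664 (plus strand): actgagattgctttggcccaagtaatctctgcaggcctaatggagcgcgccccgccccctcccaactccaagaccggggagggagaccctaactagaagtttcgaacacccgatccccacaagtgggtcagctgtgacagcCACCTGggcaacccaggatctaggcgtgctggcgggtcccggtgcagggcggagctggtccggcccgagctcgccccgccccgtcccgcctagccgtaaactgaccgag
Lama5, Itga8 and Itgb6 were higher in PT, and Lamb1, Itga11 and Itgb5 lower. Lama5 held E2-boxes starting 246 and 186 bases before the start, Itgb6 1 at 60, Itga11 1 at 121 and Itgb5 1 at 109, while the windows of Lamb1 and Itga8 held none.

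A window was found for 23 of the 37 members, 8 of them higher, 13 lower and 2 not called in PT. The E2-box was in 7 of these 23 windows, 4 of the 8 higher (Itga3, Itgb6, Itgb8 and Lama5) and 3 of the 13 lower (Itga9, Itga11 and Itgb5), and in 17.2% of all 32817 windows of that length. Itgb6 has 2 listed starts, and the window printed lies inside its gene span, which reaches further 5′. The windows of Itga9 and Itgb8 lie 105002 and 526 bases from the start of the counted transcript, so they may belong to another start of those genes. The other motifs searched, on both strands, were the GC box GGGCGG (8 members, 32.7% of all windows), the TEAD motif CATTCC (2 members, 12.6%), the AP-1 motif TGANTCA (1 member, 6.75%) and the grainyhead motif AACCNGTT (0 members, 1.78%). Median GC was 59.4% in the higher and 58.4% in the lower members, with medians of 9 and 10 CpG, against 52.4% and 6 over all windows. A match is a description of the letters and not of binding.

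Among the laminin alpha chains, Lama5 was higher in PT and the other 4 were lower. Lama5 (chr2:180176373-180225904), the broadly made epithelial alpha chain of laminins α5β1γ1 and α5β2γ1, was at 114, 126 and 112 CPM in the EL libraries and 253, 259 and 242 CPM in the PT libraries. Every PT library lay above every EL library, and the fitted difference was 2.14-fold (log2 fold change 1.10, SE 0.044, edgeR adjusted p = 6.91e-11). Lama4 (chr10:38965515-39110188), the alpha chain of laminin α4β1γ1 of vessels and mesenchyme, was at 515, 493 and 501 CPM in the EL libraries and 93.9, 101 and 98.4 CPM in the PT libraries. It was lower in all 3 PT libraries, by 5.15-fold (log2 fold change -2.36, SE 0.035, edgeR adjusted p = 3.52e-15).

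The other alpha chains were 10.2-fold or more lower in PT. Lama2 (chr10:26981285-27617191), the chain of muscle and stromal basement membranes that is mutated in a congenital muscular dystrophy, was at 187, 173 and 189 CPM in the EL libraries and 1.46, 1.99 and 2.17 CPM in the PT libraries (log2 fold change -6.60, SE 0.079, edgeR adjusted p = 5.54e-16). Lama1 (chr17:67697127-67822645), the chain of the classical laminin α1β1γ1, was at 73.3, 61.0 and 65.4 CPM in the EL libraries and 1.05, 1.46 and 1.94 CPM in the PT libraries (log2 fold change -5.47, SE 0.12, edgeR adjusted p = 1.51e-13). The fitted values are 97.2-fold and 44.4-fold differences, and no PT library reached any EL library. Lama3 (chr18:12333417-12583013), the alpha chain of the laminin that hemidesmosomes bind, was at 21.8, 22.3 and 23.8 CPM in the EL libraries and 2.20, 2.19 and 2.26 CPM in the PT libraries, 10.2-fold lower in PT (log2 fold change -3.35, SE 0.076, edgeR adjusted p = 2.03e-13).

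Per kilobase of transcript, the sum of the 5 alpha chains was 121.7 ± 2.60 CPM per kb in EL and 38.8 ± 1.00 in PT. Lama4 made up most of that sum in EL and Lama5 most of it in PT. The share of Lama5 went from 8.48% ± 0.698 in EL to 56.9% ± 1.23 in PT, that of Lama4 from 68.4% ± 0.127 in EL to 41.6% ± 1.00 in PT, and that of Lama2 from 15.7% ± 0.535 in EL to 0.502% ± 0.0980 in PT. These are shares of RNA, not of protein. Lama3 also makes a shorter transcript that has no length here, so its share, which went from 1.76% ± 0.0992 in EL to 0.543% ± 0.0212 in PT, may be understated in both groups.

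All 3 laminin beta chains were lower in PT, by different amounts. Lamb1 (chr12:31265146-31329644), the beta chain of most laminins, was at 745, 694 and 722 CPM in the EL libraries and 127, 130.0 and 129.8 CPM in the PT libraries (log2 fold change -2.48, SE 0.035, edgeR adjusted p = 2.01e-15). Lamb2 (chr9:108479847-108490530), which replaces it in laminins of synapses, vessels and glomeruli, was at 306, 294 and 296 CPM in the EL libraries and 131, 132 and 130.3 CPM in the PT libraries (log2 fold change -1.19, SE 0.03, edgeR adjusted p = 5.64e-13). Lamb3 (chr1:193294353-193343878), found with alpha 3 in the laminin that hemidesmosomes bind, was at 233, 219 and 218 CPM in the EL libraries and 179.9, 154 and 163 CPM in the PT libraries (log2 fold change -0.43, SE 0.05, edgeR adjusted p = 3.49e-06). Under library totals alone Lamb3 was still called lower, with a smaller log2 fold change of -0.18. The groups did not overlap for any of the 3, and the fall of Lamb3 was 1.35-fold against 5.59-fold for Lamb1. As a share of the 3 beta chains per kb, Lamb3 went from 23.7% ± 0.368 in EL to 47.3% ± 2.13 in PT and Lamb1 from 53.5% ± 0.477 in EL to 25.8% ± 1.17 in PT.

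Lamc1 and Lamc3, laminin gamma chains, were lower in PT. Lamc1 (chr1:153218922-153332786), the gamma chain of most laminins, was at 898, 849 and 873 CPM in the EL libraries and 99.1, 103 and 101 CPM in the PT libraries, 8.66-fold lower in PT (log2 fold change -3.11, SE 0.035, edgeR adjusted p = 3.31e-16). Lamc3 (chr2:31887281-31949083), a less common gamma chain, was at 87.8, 97.4 and 87.4 CPM in the EL libraries and 0.449, 0.768 and 0.413 CPM in the PT libraries. It had the lowest log2 fold change of the 37 members, a 167-fold difference (log2 fold change -7.38, SE 0.11, edgeR adjusted p = 2.70e-15). No PT library of either chain came near an EL library.

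**Figure D3:**
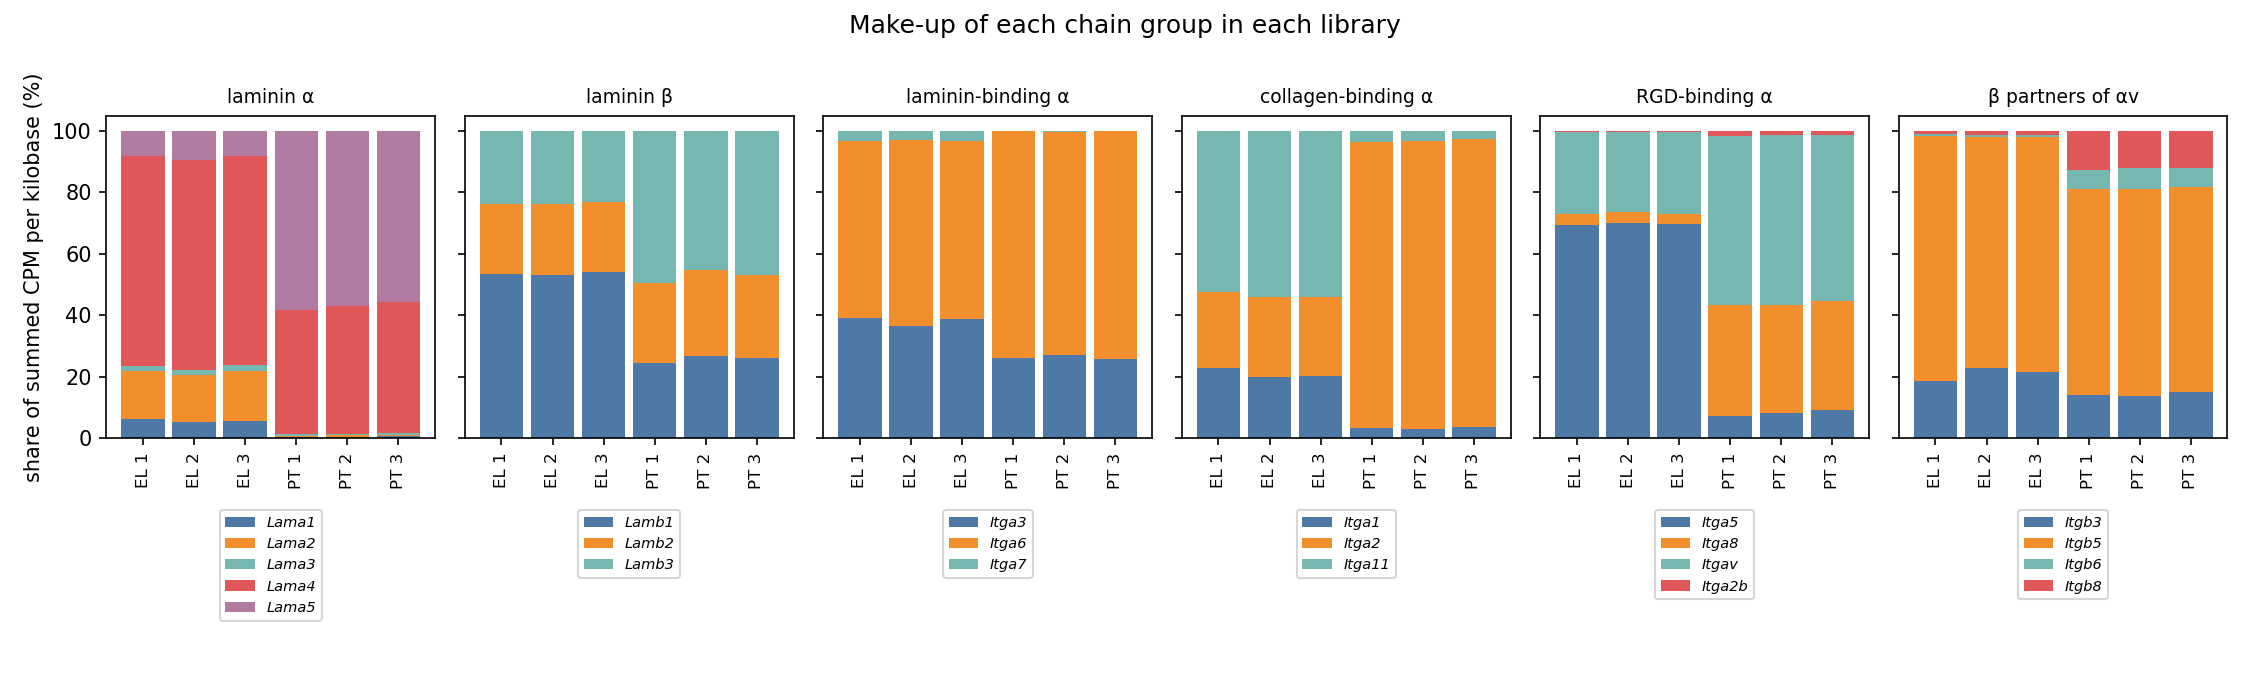
Stacked bars of the share of each chain in the summed CPM per kb of its group (percent), 1 bar for each EL and PT library, for laminin alpha and beta chains, integrin alpha chains by ligand class (Itga10 left out) and the beta partners of alpha v. On average in PT, Lama5 makes up 56.9% of the laminin alpha chains, Lamb3 47.3% of the beta chains and Itga2 93.6% of the collagen-binding alpha chains.

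Read by trimer, the partner chains Lama3 and Lamb3 differed in level. In PT, Lamb3 stood at 40.9 ± 3.19 CPM per kb, whereas Lama3 was at 0.210 ± 0.00368, and in EL they stood at 55.1 ± 2.09 and 2.14 ± 0.101. For laminin α5β1γ1, Lama5, Lamb1 and Lamc1 were at 22.1 ± 0.736, 22.3 ± 0.304 and 13.2 ± 0.246 CPM per kb in PT. In EL they were further apart, at 10.3 ± 0.667, 125 ± 4.35 and 115 ± 3.21 CPM per kb. The within-library log2 ratio of Lama5 to Lama4 counts went from -2.10 ± 0.11 in EL to 1.36 ± 0.066 in PT.

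Fibroblast, endothelial and pericyte markers fell with these chains. All 12 fibroblast markers were lower in PT (median log2 fold change -6.39), with a summed level of 66244 to 70874 CPM in EL and 658 to 785 CPM in PT. All 12 endothelial markers were lower (median -5.67), summing to 296 to 319 CPM in EL and 11.9 to 13.3 CPM in PT, and all 8 pericyte and smooth muscle markers (median -3.34), summing to 699 to 745 CPM in EL and 161 to 167 CPM in PT. Of 11 basal or myoepithelial markers, 3 were higher and 8 lower (median -1.58), with sums of 658 to 714 CPM in EL and 637 to 674 CPM in PT. These near sums hide opposite changes. From EL to PT, Oxtr rose from 20.3 to 233 CPM, Krt17 from 23.8 to 165 CPM and Krt14 from 149 to 178 CPM. Among the 8 lower, Acta2 fell from 235 to 36.2 CPM, Tagln from 155 to 22.4 CPM and Krt5 from 52.5 to 0.143 CPM. No marker of these 4 lists was at 0 in every library of a group. The part of these cell types in the fall of the laminin chains was not tested.

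Of 18 listed genes of basement membrane proteins, laminin binders and others, 12 were lower in PT and 6 higher, with a median log2 fold change of -2.28. The lower genes were 66.7%, beside 40.8% of all genes, and the higher 33.3%, beside 39.9%. Nid1, which bridges laminin and collagen IV through the gamma 1 chain, went from 722 ± 40.5 CPM in EL to 7.63 ± 0.708 CPM in PT (log2 fold change -6.56, SE 0.064, edgeR adjusted p = 1.49e-16). Col4a1 and Col4a2, the main collagen IV chains, had log2 fold changes of -5.75 and -5.66, and Col4a1 went from 2607 ± 196 CPM in EL to 48.3 ± 2.24 CPM in PT. Hspg2, which encodes perlecan, changed by -4.03 and Col15a1 by -5.89. Agrn, agrin, which binds the laminin coiled coil and dystroglycan, rose from 451 ± 17 CPM in EL to 814 ± 8.88 CPM in PT (log2 fold change 0.85, SE 0.034, edgeR adjusted p = 5.43e-11). The epithelial collagen IV chain gene Col4a5 rose too, from 109 ± 3.47 CPM in EL to 200.5 ± 9.72 CPM in PT, and Col4a6 changed by 0.24. Col4a3 and Col4a4, both under 2 CPM, also passed as higher, with log2 fold changes of 0.66 and 0.73, and without EL replicate 1 the number of higher genes was 5. The part of fibroblasts and vessels in the fall of these genes was not tested.

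Of the laminin-binding integrin alpha chains, Itga6 and Itga3 were higher in PT and Itga7 was lower. Itga6 (chr2:71786886-71858427), which pairs with beta 4 in hemidesmosomes and with beta 1 elsewhere and is a common marker of mammary progenitor fractions, was at 258, 296 and 279.5 CPM in the EL libraries and 766, 724 and 747 CPM in the PT libraries. The lowest PT library was more than 2-fold above the highest EL library, and the fitted difference was 2.68-fold (log2 fold change 1.42, SE 0.045, edgeR adjusted p = 6.03e-12). Itga3 (chr11:95044475-95076844), a receptor chain for laminins with alpha 3 or alpha 5, was at 199, 202 and 210.2 CPM in the EL libraries and 308, 303 and 293 CPM in the PT libraries, 1.48-fold higher (log2 fold change 0.56, SE 0.033, edgeR adjusted p = 3.14e-09). Itga7 (chr10:128933421-128958286), the muscle receptor chain for laminins with alpha 1 or alpha 2, was at 14.0, 12.9 and 13.9 CPM in the EL libraries and 1.25, 1.37 and 1.31 CPM in the PT libraries (log2 fold change -3.38, SE 0.10, edgeR adjusted p = 1.83e-12). Itga7 fell beside its ligand chains Lama1 and Lama2, and per kb it was 3.40 ± 0.150 CPM per kb in EL and 0.326 ± 0.0148 CPM per kb in PT.

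Their beta partners went opposite ways. Itgb1 (chr8:128685654-128733579), the partner of most alpha chains that bind laminin, collagen or fibronectin, was at 1442, 1536 and 1520.2 CPM in the EL libraries and 1150.0, 1173 and 1178 CPM in the PT libraries. It was the highest member per kb in both groups, at 393 ± 13.3 CPM per kb in EL and 306 ± 3.88 CPM per kb in PT, and 1.28-fold lower in PT (log2 fold change -0.36, SE 0.033, edgeR adjusted p = 3.94e-07). Under library totals alone Itgb1 was still called lower, with a smaller log2 fold change of -0.115. Itgb4 (chr11:115974725-116008412), which pairs only with alpha 6 and anchors hemidesmosomes, was at 119, 128 and 113 CPM in the EL libraries and 195, 207 and 195 CPM in the PT libraries, 1.66-fold higher (log2 fold change 0.73, SE 0.044, edgeR adjusted p = 4.72e-09). Itga6 was second only to Itgb1 per kb in PT (173 ± 4.91 CPM per kb), while in EL it was at 64.5 ± 4.39. The log2 ratio of Itga6 to Itgb1 rose from -2.43 ± 0.053 in EL to -0.65 ± 0.056 in PT and that of Itga6 to Itgb4 from 1.21 ± 0.095 in EL to 1.91 ± 0.088 in PT. Of the exonic bases of Itgb4, 8.67% are shared with B230344G16Rik on the opposite strand, whose reads cannot be told apart here. The summed luminal markers given above rose with Itga6, Itga3 and Itgb4, and their part in the result was not tested.

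The hemidesmosome partners of alpha 6 beta 4 were split, with 3 of 7 higher (42.9%, beside 39.9% of all genes) and 4 lower (57.1%, beside 40.8%). Col17a1, the transmembrane collagen of hemidesmosomes, was at 20.0, 19.2 and 19.9 CPM in the EL libraries and 0.214, 0.0936 and 0.0719 CPM in the PT libraries (log2 fold change -7.27, SE 0.16, edgeR adjusted p = 1.36e-13). Krt5, the basal keratin, had a log2 fold change of -8.49, whereas its partner Krt14 had 0.26. Col7a1, the anchoring fibril collagen that binds the laminin of hemidesmosomes, went from 225 ± 5.74 CPM in EL to 14.6 ± 1.06 CPM in PT (-3.95 on the log2 scale). Plec, plectin, fell from 382 ± 29.6 CPM in EL to 205 ± 1.59 CPM in PT, and Dst, which encodes the hemidesmosome plakin BPAG1 among other forms, rose from 157 ± 20.7 CPM in EL to 296 ± 10.8 CPM in PT. Cd151, the tetraspanin that binds alpha 3 and alpha 6 integrins, rose from 199 ± 3.49 CPM in EL to 317 ± 8.21 CPM in PT (log2 fold change 0.67, SE 0.031, edgeR adjusted p = 3.19e-10). Itga6, Itgb4 and Cd151 were thus higher in PT where Col17a1 and Lama3 were lower.

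Among the collagen-binding alpha chains, Itga1 and Itga11 were far lower in PT and Itga2 did not pass the test. Itga1 (chr13:114958079-115101964), a collagen IV receptor of mesenchyme and vessels, was at 69.1, 68.9 and 73.2 CPM in the EL libraries and 3.02, 2.90 and 3.31 CPM in the PT libraries (log2 fold change -4.51, SE 0.058, edgeR adjusted p = 1.06e-15). Itga11 (chr9:62677855-62783979), a fibrillar collagen receptor of fibroblasts, was at 72.0, 84.2 and 88.3 CPM in the EL libraries and 1.44, 1.37 and 1.06 CPM in the PT libraries (log2 fold change -5.98, SE 0.11, edgeR adjusted p = 1.97e-14). Neither group of libraries came near the other for these chains, with differences of 22.8-fold and 63.3-fold. Itga2 (chr13:114833081-114932100), the collagen I receptor of epithelium and platelets, was at 48.3, 57.3 and 60.6 CPM in the EL libraries and 53.4, 58.6 and 56.0 CPM in the PT libraries. The PT values of Itga2 lay inside the EL range (log2 fold change 0.016, SE 0.068, edgeR adjusted p = 0.835), while under library totals alone its log2 fold change was 0.26 with an edgeR adjusted p = 0.00227. Over the 16 alternatives its log2 fold change ran from -0.074, without EL replicate 1, to 0.26. Its adjusted p in edgeR, limma or DESeq2 ran from 0.00227 to 1, the test against a 2-fold minimum included.

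Itga10 (chr3:96645584-96664519), a cartilage collagen receptor, was low at 3.09, 2.79 and 3.26 CPM in the EL libraries and 2.48, 2.30 and 2.41 CPM in the PT libraries (log2 fold change -0.35, SE 0.12, edgeR adjusted p = 0.0206), below EL in every PT library. That call was lost under library totals alone (edgeR adjusted p = 0.448), with DESeq2 (adjusted p = 0.0632), without EL replicate 3 (edgeR adjusted p = 0.0739) and without PT replicate 2 (edgeR adjusted p = 0.0633). Over the alternatives its adjusted p in edgeR, limma or DESeq2 ran from 0.0161 to 1, the 1 from edgeR's test against a 2-fold minimum. The share of Itga2 in the collagen-binding alpha sum per kb went from 25.4% ± 0.675 in EL to 93.6% ± 0.50 in PT, with Itga10 left out for lack of a transcript length. The ratio of Itga2 to Itga1 had the widest change of the 18 ratios, from -0.35 ± 0.14 in EL to 4.18 ± 0.13 in PT on the log2 scale. The ligand genes fell: Col1a1 went from 19014 ± 487 CPM in EL to 178 ± 16.4 CPM in PT (-6.74 on the log2 scale), and Col1a2 and Col3a1 changed by -6.59 and -7.5. These 3 collagen genes are also on the fibroblast marker list, and the part of fibroblasts in the fall of Itga1 and Itga11 was not tested.

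The chains of arginine-glycine-aspartate receptors gave 1 higher, 2 lower and 1 not called among 4 alpha chains. Itga5 (chr15:103344286-103366791), the fibronectin receptor chain, was at 627, 677 and 659.7 CPM in the EL libraries and 13.3, 15.7 and 17.6 CPM in the PT libraries. This 42.0-fold fall took it from the third highest member per kb in EL, 149 ± 5.87 CPM per kb, to 3.55 ± 0.495 in PT (log2 fold change -5.39, SE 0.075, edgeR adjusted p = 1.90e-15). Its ligand Fn1, fibronectin, was at 6014, 6758 and 6762 CPM in the EL libraries and 927, 894 and 892 CPM in the PT libraries (log2 fold change -2.85, SE 0.048, edgeR adjusted p = 1.15e-14), so the receptor chain fell further than the ligand on the log2 scale, a difference that was not tested. Itgav (chr2:83722303-83806917), the alpha v chain that pairs with beta 1, 3, 5, 6 and 8, was at 388, 406 and 407 CPM in the EL libraries and 164, 169 and 171 CPM in the PT libraries (log2 fold change -1.25, SE 0.032, edgeR adjusted p = 6.49e-13). The fibroblast and endothelial marker sums given above fell with Itga5 and Itgav, and their part in the result was not tested.

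Itga8 (chr2:12106632-12301985), a receptor chain for nephronectin known from kidney development, was at 42.3, 44.1 and 39.3 CPM in the EL libraries and 88.0, 89.0 and 92.2 CPM in the PT libraries. It rose in all PT libraries by 2.14-fold (log2 fold change 1.10, SE 0.043, edgeR adjusted p = 5.39e-11), and Npnt, nephronectin, rose from 38.1 ± 1.58 CPM in EL to 67.5 ± 5.0 CPM in PT (log2 fold change 0.82, SE 0.054, edgeR adjusted p = 1.14e-08). Of the exonic bases of Itga8, 6.4% are shared with E030013I19Rik on the opposite strand. Itga2b (chr11:102453297-102469883), the platelet fibrinogen receptor chain, was at 2.41, 2.32 and 2.59 CPM in the EL libraries and 2.13, 2.00 and 1.76 CPM in the PT libraries (log2 fold change -0.31, SE 0.14, edgeR adjusted p = 0.0526). Its groups did not overlap, but it missed the threshold, which it passed with RLE factors (edgeR adjusted p = 0.0467) and with a filter at a mean count of 20 (edgeR adjusted p = 0.0495). Over the alternatives, the test against a 2-fold minimum included, its adjusted p in edgeR, limma or DESeq2 ran from 0.0467 to 1. Summed platelet and megakaryocyte markers were at 12.0 to 13.9 CPM in EL and 5.6 to 5.67 CPM in PT, and 3 of those 8 genes passed the filter on low counts, 1 of them lower, 0 higher and 2 not called. Most of the EL sum was Gp1bb, a chain of the von Willebrand factor receptor, which fell from 10.8 ± 1.07 CPM in EL to 3.84 ± 0.0331 CPM in PT (log2 fold change -1.49, SE 0.093, edgeR adjusted p = 7.29e-09). Without Gp1bb the sum was 1.94 to 2.17 CPM in EL and 1.72 to 1.85 CPM in PT, and Pf4 and Gp1ba had log2 fold changes of 0.0094 (edgeR adjusted p = 0.969) and 0.053 (edgeR adjusted p = 0.886). The part of platelets in the level of Itga2b was not tested.

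The beta partners of alpha v moved in opposite directions. Itgb5 (chr16:33829665-33949338), a vitronectin receptor chain, was at 615, 527 and 546 CPM in the EL libraries and 212, 220.4 and 215 CPM in the PT libraries, 2.61-fold lower in PT (log2 fold change -1.38, SE 0.05, edgeR adjusted p = 2.10e-11). Itgb3 (chr11:104608000-104670476), the chain of the osteopontin and vitronectin receptor, was at 251, 282 and 268 CPM in the EL libraries and 79.2, 78.7 and 84.2 CPM in the PT libraries, 3.31-fold lower (log2 fold change -1.73, SE 0.044, edgeR adjusted p = 6.70e-13). Both beta chains fell with Itgav, and the log2 ratio of Itgb5 to Itgav, which changed by -0.13, overlapped between groups.

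Itgb6 and Itgb8, the epithelial chains whose alpha v receptors bind latent TGF-beta, were higher in PT. Itgb6 (chr2:60598292-60722603) was at 6.80, 8.11 and 8.10 CPM in the EL libraries and 29.0, 31.7 and 28.4 CPM in the PT libraries, 3.87-fold higher (log2 fold change 1.95, SE 0.074, edgeR adjusted p = 3.35e-11). Itgb8 (chr12:119162803-119238276) was at 20.3, 21.6 and 20.7 CPM in the EL libraries and 103, 101 and 99.8 CPM in the PT libraries, 4.84-fold higher and the highest log2 fold change of the 37 members (log2 fold change 2.28, SE 0.038, edgeR adjusted p = 9.92e-15). The log2 ratio of Itgb8 to Itgav rose from -4.26 ± 0.032 in EL to -0.73 ± 0.051 in PT, and that of Itgb6 to Itgav from -5.71 ± 0.11 in EL to -2.50 ± 0.086 in PT. Even so, Itgb5 kept most of the summed level per kb of these 4 beta chains, from 77.3% ± 2.40 in EL to 67.1% ± 0.381 in PT, while Itgb8 went from 1.12% ± 0.0901 in EL to 12.3% ± 0.309 in PT. The part of the luminal cells, whose markers rose as given above, in the rise of Itgb6 and Itgb8 was not tested.

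Their ligand genes moved both ways. Tgfb3 rose from 301 ± 15.6 CPM in EL to 707 ± 15.8 CPM in PT (log2 fold change 1.23, SE 0.039, edgeR adjusted p = 5.23e-12) and Tgfb1 fell from 239 ± 9.59 CPM in EL to 49.3 ± 3.68 CPM in PT (log2 fold change -2.28, SE 0.05, edgeR adjusted p = 1.54e-13). Thbs1, thrombospondin, rose from 396 ± 44.9 CPM in EL to 1396 ± 72.4 CPM in PT (1.82 on the log2 scale). Spp1, osteopontin, changed by -2.69 and Fbn1, fibrillin, by -6.63. Vtn, vitronectin, had 40, 36 and 48 counts in the EL libraries and 0 in each PT library. Mfge8, the milk fat globule protein bound by alpha v beta 5 and alpha v beta 3, rose from 1383 ± 38.4 CPM in EL to 1736 ± 7.5 CPM in PT (0.33). Over the list of 22 other integrin ligands, 19 were tested, 4 were higher and 15 lower, and the median log2 fold change was -2.69. The higher ligands were 21.1%, beside 39.9% of all genes, and the lower 78.9%, beside 40.8%.

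Itga9 was lower and Itga4 higher in PT. Itga9 (chr9:118606709-118901003), a tenascin C receptor chain, was at 69.9, 80.5 and 78.0 CPM in the EL libraries and 8.0, 9.89 and 9.72 CPM in the PT libraries, 8.26-fold lower (log2 fold change -3.05, SE 0.074, edgeR adjusted p = 4.04e-13), and its ligand gene Tnc changed by -5.63. Itga4 (chr2:79255426-79333114), the VCAM-1 receptor chain, was at 1.18, 1.51 and 1.49 CPM in the EL libraries and 1.99, 2.12 and 1.67 CPM in the PT libraries (log2 fold change 0.46, SE 0.17, edgeR adjusted p = 0.0232). That call of a low gene was lost with DESeq2 (adjusted p = 0.0705) and without EL replicate 1 (edgeR adjusted p = 0.0855), PT replicate 1 (0.0602) or PT replicate 2 (0.0852). Over the alternatives its adjusted p in edgeR, limma or DESeq2 ran from 0.00155 to 1, the 1 from edgeR's test against a 2-fold minimum. Vcam1 itself fell from 9.38 ± 0.257 CPM in EL to 3.90 ± 0.423 CPM in PT.

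The beta 2 integrins of myeloid cells were higher in PT. Itgb2 (chr10:77530329-77565708), their shared beta chain, was at 28.2, 34.0 and 35.7 CPM in the EL libraries and 48.8, 58.8 and 53.4 CPM in the PT libraries, 1.64-fold higher (log2 fold change 0.72, SE 0.081, edgeR adjusted p = 2.88e-06). Itgam (chr7:128062640-128118491), the CD11b chain, was at 24.9, 35.8 and 34.1 CPM in the EL libraries and 53.3, 63.2 and 64.0 CPM in the PT libraries (log2 fold change 0.93, SE 0.11, edgeR adjusted p = 3.37e-06), and 73.7% of its exonic bases are shared with the gene model Gm49368 on the same strand. Itgax (chr7:128129526-128150657), the CD11c chain, was at 6.41, 7.63 and 8.17 CPM in the EL libraries and 11.8, 15.6 and 12.4 CPM in the PT libraries (log2 fold change 0.84, SE 0.12, edgeR adjusted p = 1.93e-05). These 3 chains lay above every EL library in every PT library and rose by 1.91-fold or less.

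Itgal (chr7:127296139-127335137), the LFA-1 chain, was at 1.30, 1.89 and 1.89 CPM in the EL libraries and 1.97, 2.17 and 2.78 CPM in the PT libraries (log2 fold change 0.45, SE 0.19, edgeR adjusted p = 0.0413), with PT above EL by little. That call was lost with DESeq2 (adjusted p = 0.0789) and limma-voom (adjusted p = 0.05) and without EL replicate 1 (edgeR adjusted p = 0.142), PT replicate 2 (0.0559) or PT replicate 3 (0.193). Over the alternatives its adjusted p in edgeR, limma or DESeq2 ran from 0.00348 to 1, the 1 from edgeR's test against a 2-fold minimum. Itgad (chr7:128173933-128205504), the CD11d chain, was at 0.909, 1.33 and 1.40 CPM in the EL libraries and 0.780, 1.42 and 0.934 CPM in the PT libraries and did not pass (log2 fold change -0.21, SE 0.25, edgeR adjusted p = 0.454). Of 12 macrophage markers, 10 were higher in PT, 1 lower (Mertk) and 1 not called (Csf1r), with a median log2 fold change of 1.03. Their summed level was 774 to 942 CPM in EL and 1454 to 1557 CPM in PT. Most of that sum was Lyz2, from 541 ± 79.9 CPM in EL to 837 ± 45.5 CPM in PT, and Cd14, from 240 ± 3.87 to 481 ± 4.99 CPM. Log2 fold changes of the 12 markers ran from -0.58 for Mertk to 4.40 for Cx3cr1, a low gene at 2.69 CPM in PT. Those of C1qa, C1qb and C1qc were 2.51, 2.86 and 2.80. The part of macrophages in the rise of the beta 2 integrins was not tested. The ligand gene Icam1 fell from 57.4 ± 1.61 CPM in EL to 21.9 ± 1.74 CPM in PT.

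Itgae and Itgb7, which pair as the E-cadherin receptor of intraepithelial lymphocytes, were both lower in PT. Itgae (chr11:73090505-73147449) was at 1.42, 1.71 and 1.40 CPM in the EL libraries and 0.195, 0.225 and 0.395 CPM in the PT libraries (log2 fold change -2.45, SE 0.26, edgeR adjusted p = 1.75e-06). Itgb7 (chr15:102215994-102233405) was at 0.639, 0.831 and 1.12 CPM in the EL libraries and 0.293, 0.225 and 0.126 CPM in the PT libraries (log2 fold change -2.01, SE 0.34, edgeR adjusted p = 1.15e-04). Both lay under 2 CPM in every library without overlap of the groups. Cdh1, E-cadherin, rose from 331 ± 14.9 CPM in EL to 1002 ± 15.1 CPM in PT. Summed lymphocyte markers were at 9.68 to 14.4 CPM in EL and 11.6 to 14.7 CPM in PT, and Cd3e, Cd3g, Cd8a and Ms4a1 were at 0 in every PT library. Most of that sum was Ptprc, CD45, which all leukocytes carry and which rose from 8.31 ± 1.71 CPM in EL to 12.5 ± 1.49 CPM in PT (log2 fold change 0.59, SE 0.13, edgeR adjusted p = 0.00101). Without Ptprc the sum was 3.34 to 4.98 CPM in EL and 0.741 to 1.08 CPM in PT. Cd4 fell from 2.27 ± 0.294 CPM in EL to 0.894 ± 0.167 CPM in PT (log2 fold change -1.34, SE 0.19, edgeR adjusted p = 2.15e-05), and no other listed lymphocyte gene passed the filter on low counts. The part of lymphocytes in the fall of Itgae and Itgb7 was not tested.

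Ratios within a library do not depend on how libraries are scaled, and 18 ratios of paired chains were compared. The groups did not overlap for 16 of them, beside 82.7% of all single genes tested, and ratios of other gene pairs were not computed. Of the 18 differences, 13 were positive and 5 negative. Each of the 16 ratios without overlap gave an exact two-sided permutation p = 0.1, the smallest that 3 against 3 allows. None could therefore pass 0.05, and adjusted over the 18 ratios that exact p was 0.112. The ratios of Itgb5 to Itgav and of Itgal to Itgb2 had an exact p = 0.2. Among the laminin receptors, the log2 ratio of Itga3 to Itgb1 changed by 0.93, that of Itgb4 to Itgb1 by 1.09 and that of Itga6 to Itga3 by 0.86. Among the laminins, Lamb2 to Lamb1 changed by 1.29 and Lamb1 to Lamc1 by 0.63. Itgam to Itgb2 changed by 0.22 and Itgb3 to Itgav by -0.47, while Itgal to Itgb2, at -0.27, overlapped between groups.

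**Figure D4:**
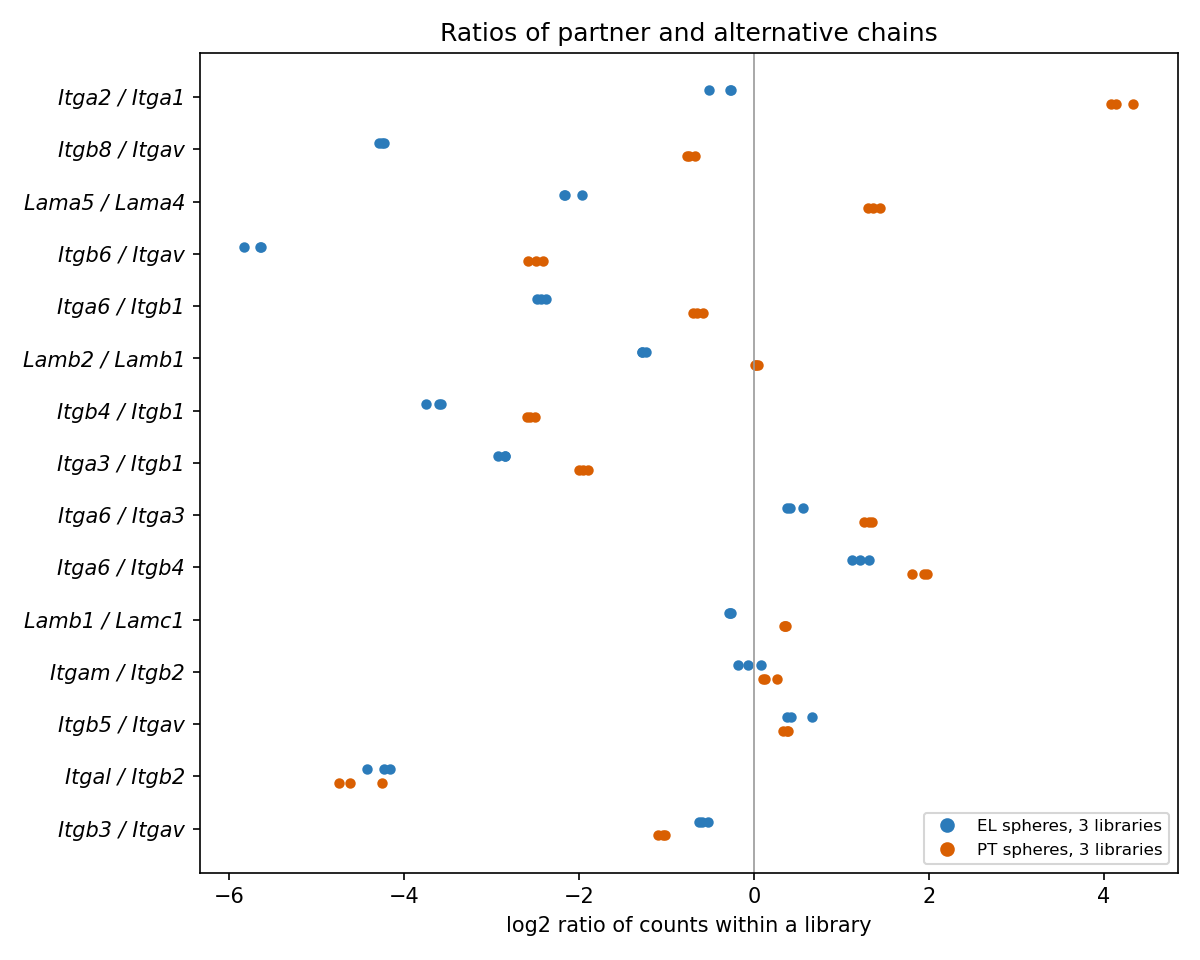
Log2 ratio of 15 of the 18 pairs of chains within each library (counts with a pseudocount of 0.5), 1 point per library, EL in blue and PT in orange. The widest gaps plotted are Itga2 to Itga1 (4.53), Itgb8 to Itgav (3.53) and Lama5 to Lama4 (3.46), and Itgb5 to Itgav and Itgal to Itgb2 overlap.

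By level per kb, the order of the chains changed between the groups. In EL, Itgb1 (393 ± 13.3) was followed by Itgb5 at 171 ± 14.2, Itga5 at 149 ± 5.87, Lamb1 at 125 ± 4.35 and Lamc1 at 115 ± 3.21 CPM per kb. In PT, Itgb1 (306 ± 3.88) was followed by Itga6 at 173 ± 4.91, Itgb5 at 65.7 ± 1.30, Itga3 at 62.0 ± 1.55 and Lamb3 at 40.9 ± 3.19 CPM per kb. Itgav and Lamb2 were neighbors in PT whose libraries overlapped, at 23.8 ± 0.518 and 23.3 ± 0.150 CPM per kb.

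Genes on the cytoplasmic side of the integrins were split about as all genes were. Of 25 tested adaptors and kinases, 11 were higher (44.0%, beside 39.9% of all genes), 10 lower (40.0%, beside 40.8%) and 4 not called. Their median log2 fold change was 0.066, and library totals alone gave 16 higher and 8 lower. Actn4, alpha-actinin 4, rose from 1361 ± 35.0 CPM in EL to 3847 ± 95.5 CPM in PT (log2 fold change 1.5, SE 0.035, edgeR adjusted p = 2.44e-13), and Actn1 and Ptk2b changed by 1.07 and 1.42. The tensins, which bind beta chain tails, were all 4 lower: Tns1 fell from 107 ± 1.62 CPM in EL to 5.82 ± 0.324 CPM in PT (log2 fold change -4.20, SE 0.046, edgeR adjusted p = 3.14e-16), and Tns4, Tns2 and Tns3 changed by -3.09, -1.65 and -1.30. The integrin activators Tln1 (talin) and Fermt2 (kindlin 2) changed by -0.11 and -0.44, but under library totals alone Tln1 was higher, at 0.14 with an edgeR adjusted p = 5.98e-04. Ptk2, focal adhesion kinase, had a log2 fold change of 0.066 (edgeR adjusted p = 0.0671) and Ilk 0.048 (edgeR adjusted p = 0.164), neither past the threshold, while library totals alone gave 0.31 with an edgeR adjusted p = 5.87e-07 and 0.30 with an edgeR adjusted p = 9.65e-07.

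A list of laminin receptors that are not integrins also held dystrophin, utrophin and the sarcoglycans, which go with dystroglycan. It gave 2 higher (25.0%, beside 39.9% of all genes), 5 lower (62.5%, beside 40.8%) and 1 not called of 8 tested. The 2 higher were Bcam and Dmd, dystrophin, which had a log2 fold change of 0.33. Dag1, dystroglycan, fell from 583 ± 8.90 CPM in EL to 475 ± 4.64 CPM in PT (log2 fold change -0.30, SE 0.029, edgeR adjusted p = 6.64e-07), but under library totals alone its log2 fold change was -0.049 with an edgeR adjusted p = 0.119. Utrn, utrophin, which was not called, then passed as higher (0.21 with an edgeR adjusted p = 0.027), for 3 higher and 4 lower. Rpsa, another of the lower genes, fell from 943 ± 15.5 CPM in EL to 657 ± 8.57 CPM in PT (log2 fold change -0.52, SE 0.03, edgeR adjusted p = 2.66e-09). Under library totals alone it was still lower, at -0.27. Of the sarcoglycans of the dystroglycan complex, Sgcb changed by -0.77, Sgce by -5.84 and Sgcd by -7.84, and Sgca did not pass the filter on low counts. Bcam, the Lutheran receptor of the laminin alpha 5 chain, had a log2 fold change of 0.13 beside the 1.10 of Lama5. Among 5 tetraspanins that bind integrins, Cd81, Cd82 and Cd9 were higher (0.62, 0.53 and 0.12) and Cd63 and Tspan4 lower (-1.07 and -1.86).

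**Figure D5:**
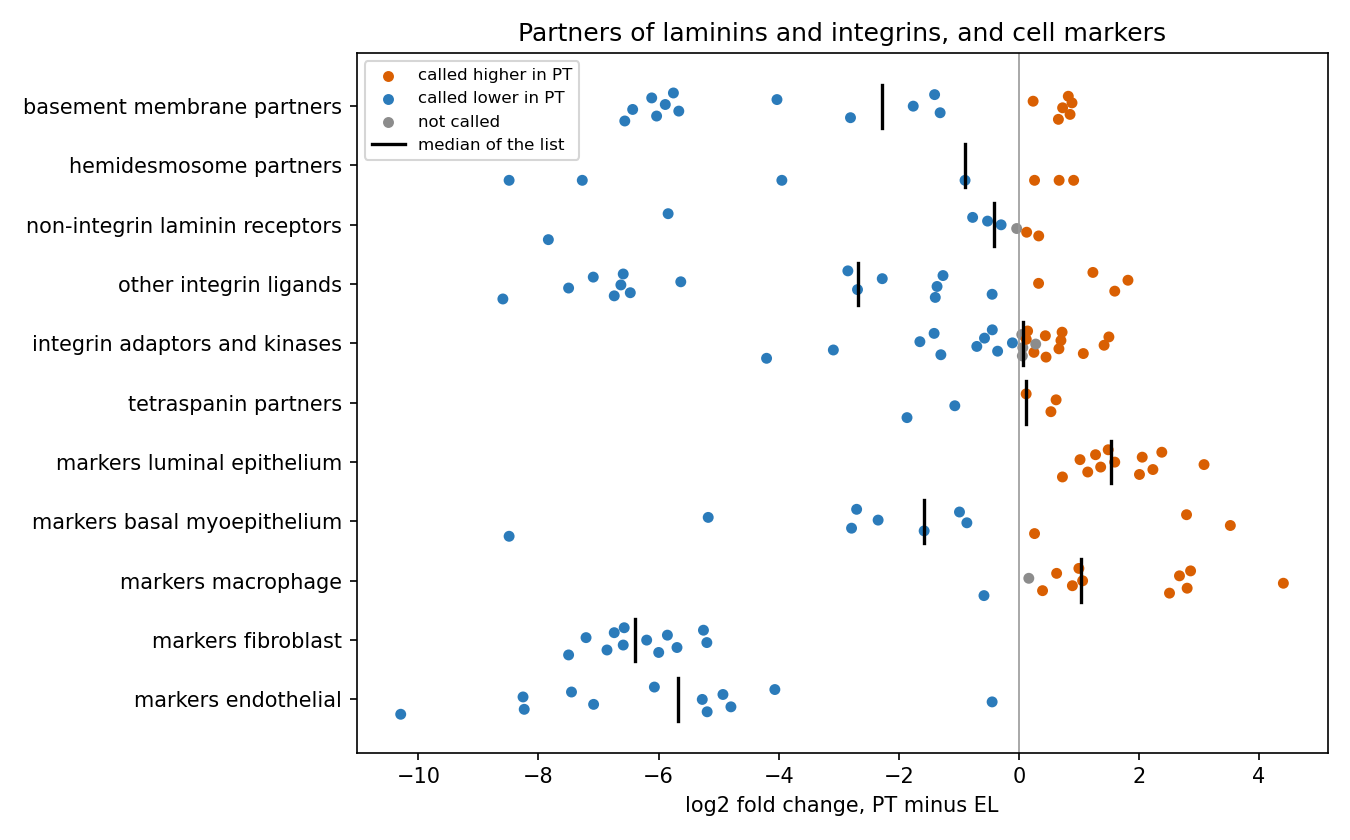
Log2 fold change, PT minus EL, of each tested gene (1 point) of 6 partner lists and 5 cell type marker lists, orange for called higher, blue for called lower and gray for not called in PT, with a black bar at the median of each list. The other ligands (median -2.69), basement membrane partners (-2.28) and fibroblast markers (-6.39) lie lower in PT, the adaptors (0.066) near 0 and the luminal markers (1.54) higher.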

How the data were processed

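The authors' deposited tables hold raw counts, whole numbers per RefSeq transcript with a gene symbol, not normalized. Per the submitters' processing notes, STAR, featureCounts and DESeq2 were used with the builds mm10 and hg19. The sources used here give no versions, parameters or strandedness, so antisense and overlapping genes cannot be told apart. The table of EL replicate 1 holds 27664 of 33068 rows, and the rows in all 6 tables were used, with 1 transcript per symbol. The planned test for members without a row there was not needed. Positions are from RefSeq and GRCm38 (99.0% of rows matched).

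Counts of all genes were fitted with edgeR 4.0.16 in R 4.3.3 (filterByExpr, TMM factors, glmQLFit and glmQLFTest, group as the only term). Levels per kb divide CPM by the GENCODE M21 length of the counted transcript, found for 36 members. Ratios are log2 of counts with a pseudocount of 0.5, tested by exact permutation in SciPy 1.17.1. The members and gene lists were chosen with earlier results of these data known. Named are the members, 1 of which is not reported here and counts in the totals, and, from each list, up to 4 genes with the smallest p-value and direct partners of the chains described; some partners were named after their values were seen. Alternatives were other scaling, DESeq2 1.42.0, limma-voom (limma 3.58.1), count filters, a replicate block, each library left out and a 2-fold minimum. The test was tried on simulated data.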

Additional observations from a re-analysis of the deposited data

How the results depend on the processing

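Each of the 37 log2 fold changes was recomputed under 16 alternatives, 592 values in all. Of these, 565 kept their side of the threshold, and no called fold change changed sign. Itga2 and Itgad, which were not called, lay on both sides of 0, at -0.074 to 0.26 and -0.49 to 0.036. Against a 2-fold minimum, the members called higher went from 13 to 5. Leaving out 1 library gave 11 to 13 members higher and 20 to 21 lower. The fit with a replicate block gave 13 higher and 21 lower and changed no member's call, and the basement membrane partners called higher went from 6 to 5. Deviations of same-numbered EL and PT libraries from their group means correlated at 0.022, 0.0084 and -0.0022. Those of different-numbered libraries correlated at -0.0309 to 0.0265. Deviations this small could be mostly noise, so the values cannot show whether the replicate numbers pair the samples. Under the 2-fold minimum 11 calls were lost, among them those of Itga3, Itgam, Itgax, Itgb1, Itgb2, Itgb4 and Lamb3. Under the other alternatives, calls lost or gained concerned members near the threshold or below 5 CPM (Itga10, Itga2b, Itga4 and Itgal) and Itga2. With 3 libraries per group, an exact test of 1 value cannot pass 0.05. The depth of Itgad, Itgae and Itgb7, with mean counts under 60 per library, limits their precision.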

Other observations

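Of members that lie side by side in the genome, some had close log2 fold changes and others did not. Itga2 and Itga1 are 26.0 kb apart on chromosome 13, with log2 fold changes of 0.016 and -4.51. On chromosome 7, Itgam and Itgax are 11.0 kb apart and had 0.93 and 0.84, while Itgad, 23.3 kb beyond Itgax, had -0.21 and did not pass the test. These values are descriptions, and no difference between neighbors was tested.

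Of 6 listed Schwann cell markers, 5 were tested and 4 were higher in PT, with a summed level of 282 to 303 CPM in EL and 812 to 816 CPM in PT. Several of these genes, Erbb3 and Sox10 among them, are also made by mammary epithelium, and Erbb3, the partner receptor of ErbB2, had a log2 fold change of 1.56.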
